A study of Mus musculus with 8 samples.

Results

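The genes described here are those compared between *Suz12GT* cells and wild-type cells at day 5 of spinal motor neuron (SMN) differentiation. A gene was included if it was protein-coding, reached 1 FPKM in either library and lay above 0 in both. FPKM, fragments per kilobase of transcript and per unit of mapped fragments, is a level already divided by gene length and library size. These rules left 12355 of the 36808 genes in the deposited table, which held 22304 protein-coding genes. Another 9866 protein-coding genes were under 1 FPKM in both libraries, 64 were listed at 0 in wild-type cells and 19 were listed at 0 in *Suz12GT* cells. At the lower edge, *Nrg3* at 0.222 FPKM in wild-type and 1.0 FPKM in *Suz12GT* cells was just inside, and *Dppa4* at 0.127 and 0.999 FPKM was just outside.

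The wild-type cells were of the E14 embryonic stem cell (ESC) line and carried no engineered *Suz12* allele. *Suz12GT* cells carried a gene trap in *Suz12* that, by the study's account, yields SUZ12 fused to β-galactosidase and leaves part of the H3K27me3 in place. Both lines came from mouse ESCs of 129/Ola background, were kept as ESCs on irradiated fibroblast feeders, which the study removed by a brief plating when it collected ESCs, and were taken through the same SMN protocol, which withdraws LIF and adds retinoic acid and a Hedgehog agonist. Each side was 1 library of 1 line, and nothing says how many cultures it held. Levels in E14 ESCs and in day 5 cells of the *Suz12Δ* truncation and the *Eednull* line are given beside some results, and those mutant lines are of other strain backgrounds. A library of *Suz12GT* ESCs was not analysed here.

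Polycomb repressive complex 2 (PRC2) is built on SUZ12, EED and EZH2 and places 3 methyl groups on lysine 27 of histone H3, a mark of silent developmental genes. In the embryo, ventral neural progenitors marked by PAX6 and OLIG2 receive Hedgehog and retinoic acid signals, leave the cell cycle under proneural factors such as NEUROG2, and turn on *Mnx1*, *Isl1* and *Lhx3* as motor neurons. Genes of endoderm, mesoderm and epithelium are normally silent in that lineage.

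With 1 library on each side no test was possible and there was no check by replicates. Differences are given as the log2 of *Suz12GT* over wild type after adding 0.1 FPKM to each, which understates the change of low genes, and a gene is called higher or lower where the difference was 2-fold or more. By that rule 1448 of the 12355 genes (11.7%) were higher in *Suz12GT* cells and 155 (1.25%) were lower. The median log2 difference over all genes was 0.13. The background for a list depends on the wild-type level of its genes. Of the 11435 genes at 1 FPKM or above in wild-type cells 710 (6.21%) were higher, with a median of 0.09, and of the 920 genes under 1 FPKM there 738 (80.2%) were higher, with a median of 1.75. For lists with many low genes the count among genes on in wild-type cells, at 1 FPKM or above, is also given, beside the 6.21%. That share pools all levels. Over all 12355 genes 20.3% were higher at a mean of 2 to 5 FPKM and 3.14% at 10 to 30 FPKM. For lists of genes at a few FPKM, 6.21% is thus too low a background. For scale, CJ7 ESCs, another wild-type line, were set against E14 ESCs in the same way. Of 12149 genes 352 (2.9%) were higher in CJ7 and 1009 (8.31%) lower, so libraries of 2 wild-type lines also differed at many genes. With 1 library per line, differences of allele, of line and of library preparation or sequencing cannot be told apart. The level of a gene in a mixed culture depends on how many cells express it and on how much RNA each cell makes, and these libraries cannot tell fewer cells of a type from less RNA per cell.

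Most of the genes compared were kept on, meaning at 1 FPKM or above in both libraries. These were 11343 of the 12355 genes (91.8%), and 10516 of those lay within 2-fold. Of the same 12355 genes 94.0% were at 1 FPKM or more in *Suz12Δ* day 5, 93.5% in *Eednull* day 5 and 88.2% in E14 ESC libraries. A high share of genes on was thus not particular to the libraries compared. Genes gained, meaning under 1 FPKM in wild-type cells, at 1 FPKM or more in *Suz12GT* cells and at least 2-fold apart, numbered 738 (5.97%). Genes lost by the mirrored rule numbered 38 (0.308%). The inclusion rule itself shapes these counts, because a gene under 1 FPKM in wild-type cells was included only through its level in *Suz12GT* cells. The 920 such genes stood against 92 under 1 FPKM in *Suz12GT* cells. A difference of 4-fold or more was seen for 475 genes in the higher direction and 11 in the lower. In the plot of both libraries the gained genes form a band at low wild-type levels with no counterpart of the same density on the other side.

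**Figure D1:**
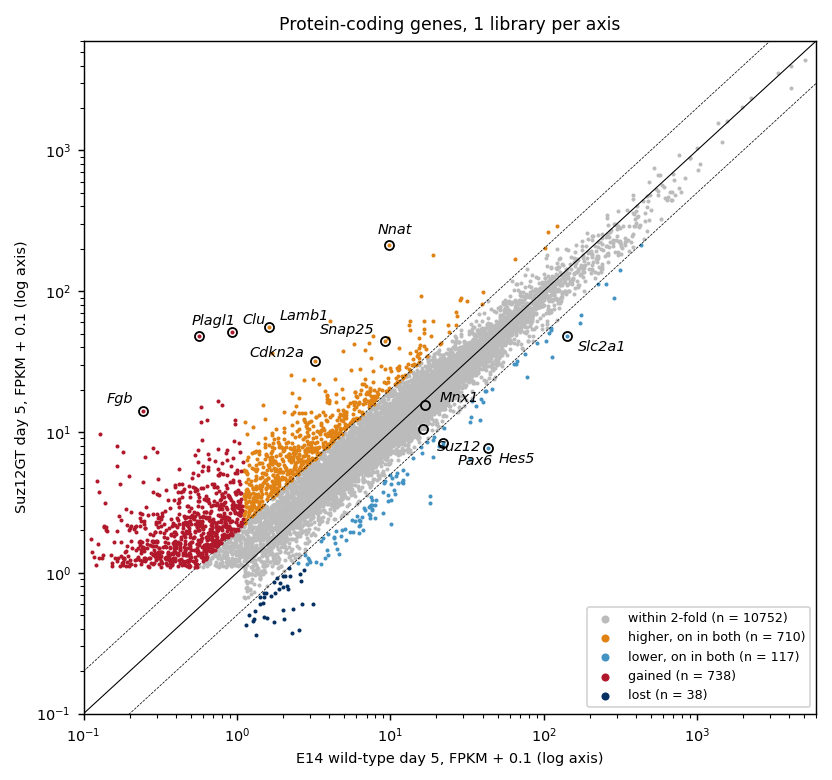
Level of each of the 12355 genes in wild-type day 5 cells (x axis) and *Suz12GT* day 5 cells (y axis), both as FPKM + 0.1 on log axes; solid line, equal levels; dashed lines, 2-fold; colours, the classes in the key. The 738 gained genes lie at the left above the upper dashed line, and *Suz12*, *Mnx1* and most genes lie between the dashed lines.

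*Suz12* itself lies on chromosome 11, 79806608 to 79847625, in NCBI build 37, the build of all coordinates below unless another is named. Its level was 41.3 FPKM in E14 ESCs, and at day 5 it was 16.2 FPKM in the wild type and 10.3 FPKM in *Suz12GT*. The log2 difference at day 5 was -0.65, within 2-fold. Transcripts of a trapped gene still begin at its own promoter, so a value over the whole gene does not check the allele. *Ezh2*, the catalytic subunit, was at 98.2 and 67.1 FPKM in wild-type and *Suz12GT* cells, *Eed*, which binds the methylated histone, at 11.1 and 12.9 FPKM, and *Ezh1*, the alternative catalytic subunit, at 4.71 and 5.34 FPKM. The histone-binding subunits *Rbbp4* and *Rbbp7* were at 117 and 66.0 FPKM in wild-type cells and at 105 and 73.3 FPKM in *Suz12GT* cells. None of 10 PRC2 core and accessory genes was called in either direction. Of 19 PRC1 subunit genes 1 was lower, *Cbx7*, which encodes a reader of H3K27me3 (18.8 FPKM in wild type, 6.49 FPKM in *Suz12GT*). None of 7 genes for DNA methylation and demethylation enzymes was called, *Uhrf1* at 54.6 and 31.3 FPKM and *Dnmt3b* at 3.58 and 3.05 FPKM included.

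Motor neuron identity genes were on at like levels in both libraries. *Mnx1* (chromosome 5, 29799578 to 29805059), a homeobox factor of motor neurons, was at 16.7 FPKM in wild-type and 15.4 FPKM in *Suz12GT* cells, against 2.63 FPKM in *Suz12Δ*, 2.44 FPKM in *Eednull* and 0.127 FPKM in E14 ESCs. *Isl1*, the LIM-homeobox partner, was at 18.1 and 22.8 FPKM in wild-type and *Suz12GT* cells and at 5.32 and 4.43 FPKM in the 2 null lines. *Lhx3*, named here after its values were seen, was at 25.8 and 25.3 FPKM in wild-type and *Suz12GT* cells. Choline acetyltransferase, *Chat*, likewise named after its values were seen, was at 7.61 and 10.8 FPKM, with 0.0127 FPKM in *Suz12Δ* and 0.0583 FPKM in *Eednull* cells. *Suz12GT* thus stood beside wild type and apart from both null lines at these genes.

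Of 21 motor neuron genes 6 were higher in *Suz12GT* cells and 1 was lower, with a median log2 difference of 0.48. Among the 18 on in wild-type cells 3 were higher and 1 lower (median 0.37). The 3 others that were higher, *Slc5a7*, *Chodl* and *Tbx20*, were included only through their level in *Suz12GT* cells. *Ache*, acetylcholinesterase, was at 1.77 FPKM in wild-type and 8.97 FPKM in *Suz12GT* cells. The choline transporter *Slc5a7* was at 0.312 and 3.03 FPKM, and *Chodl*, a marker of fast motor neurons, at 0.487 and 3.87 FPKM. *Tbx20*, a factor of cranial motor neurons, was at 0.200 and 2.52 FPKM. The lower gene was *Neurog2*.

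Genes that every neuron uses were higher as a group. Of 31 pan-neuronal genes 12 were higher, none was lower and the median log2 difference was 0.62, with a median level of 40.1 FPKM in wild-type, 74.1 FPKM in *Suz12GT*, 1.70 FPKM in *Suz12Δ* and 1.19 FPKM in *Eednull* cells. *Snap25* (chromosome 2, 136539189 to 136608164), part of the machinery of vesicle release, stood at 9.14 FPKM in wild-type, 43.9 FPKM in *Suz12GT*, 0.264 FPKM in *Suz12Δ* and 0.484 FPKM in *Eednull* cells. The calcium sensor of that machinery, *Syt1*, was at 3.79 and 11.8 FPKM in wild-type and *Suz12GT* cells. *L1cam*, an axonal adhesion molecule, was at 28.9 and 88.9 FPKM. The neuronal genes *Elavl4* at 102 and 116 FPKM and *Dcx* at 63.7 and 101 FPKM, both named after their values were seen, lay within 2-fold.

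Axon guidance genes were called higher for 11 of 33 members and lower for none, with a median of 0.55. *Sema3a*, which encodes a repellent, was at 0.549 FPKM in wild-type and 5.28 FPKM in *Suz12GT* cells, and the receptor genes *Plxna4* and *Unc5c* were at 1.25 and 1.19 FPKM in wild-type cells and 5.39 and 5.35 FPKM in *Suz12GT* cells. *Sema6a* stood at 11.3 and 39.4 FPKM. A list of 40 genes of the synapse and secretory vesicle and a list of channel genes, both drawn up after the values were seen, are given as descriptions. On the first, 24 were higher and none was lower (median 1.08), with *Pcsk1*, a prohormone convertase, at 0.330 and 3.64 FPKM. Of 81 ion channel genes 44 were higher and 1 lower (median 1.19), the sodium channel gene *Scn3a* at 2.67 and 13.6 FPKM among the former. After adding 1 FPKM in place of 0.1 the counts were 14 and 25, and among genes on in wild-type cells 15 of 30 and 18 of 51 were higher.

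**Figure D2:**
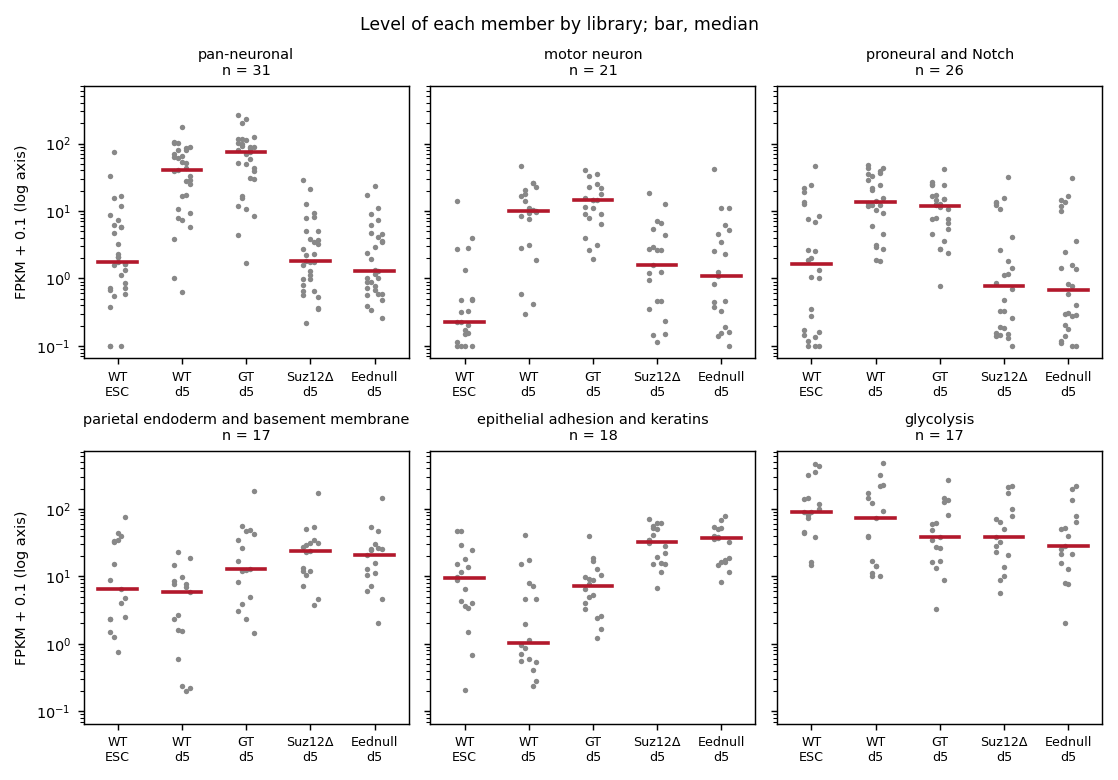
Level of each member of 6 gene lists (grey points, FPKM + 0.1, log axis) in E14 wild-type ESCs, wild-type day 5 (WT d5), *Suz12GT* day 5 (GT d5), *Suz12Δ* day 5 and *Eednull* day 5 cells, 1 library each, with the list median as a red bar. The pan-neuronal and motor neuron medians are high in both WT d5 and GT d5, and the epithelial median in GT d5 (7.04 FPKM) lies between WT d5 (0.941 FPKM) and the null lines.

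Proneural and Notch genes stood on the lower side. Of 26 members 6 were lower and 2 higher, with a median of -0.57. *Hes5* (chromosome 4, 154335032 to 154336480), a Notch target that keeps neural progenitors undifferentiated, was at 43.2 FPKM in wild-type and 7.55 FPKM in *Suz12GT* cells, a log2 difference of -2.50 and the lowest of any gene at 5 FPKM or more other than *Gm5481*. The proneural factors *Neurog1* and *Neurog2* were at 11.9 and 20.7 FPKM in wild-type cells and 4.43 and 7.89 FPKM in *Suz12GT* cells. *Dll3*, a Notch ligand of nascent neurons, was at 33.4 and 12.7 FPKM. The receptor *Notch2* and the effector *Hes1* were on the other side, at 5.82 and 12 FPKM in wild-type cells and 12.3 and 24.2 FPKM in *Suz12GT* cells, and neither stayed past 2-fold once the libraries were scaled to the same 75th percentile.

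*Pax6*, a factor of ventral progenitors, measured 21.9 FPKM in wild-type, 8.18 FPKM in *Suz12GT*, 7.24 FPKM in *Suz12Δ* and 9.35 FPKM in *Eednull* cells. *Olig2*, the motor neuron progenitor factor, was at 22.1 FPKM in wild-type and 10.5 FPKM in *Suz12GT* cells and at 0.107 and 0.0455 FPKM in the null lines. Among 13 genes of ventral progenitor domains 3 were lower (*Pax6*, *Olig2* and *Foxn4*) and 3 were higher. The higher ones included the floor plate genes *Shh*, the Hedgehog ligand (1.71 and 10.4 FPKM), and *Foxa2* (2.96 and 11.8 FPKM). *Foxa2* is also an endoderm factor. The median of the 13 was 0.01. Broader neural progenitor genes were mostly level, with 2 of 15 higher (*Zic1* at 0.203 and 3.54 FPKM and *Fabp7* at 27.3 and 66.7 FPKM), only *Hes5* lower and a median of -0.03.

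The Hedgehog pathway had 3 of 14 genes lower and 2 higher (median -0.29). The effectors *Gli1* and *Gli2* were at 10.6 and 2.69 FPKM in wild-type cells and at 3.53 and 1.25 FPKM in *Suz12GT* cells, while the ligand *Shh* and the coreceptor *Cdon* (3.87 and 7.91 FPKM) were higher. With 1 FPKM added, *Gli1* was the only one of the 3 lower genes still called, and *Cdon* was past 2-fold neither then nor after either scaling. Other positions of the neural tube gave little. Of 15 dorsal progenitor genes 1 was included, within 2-fold, and the sole member of 18 forebrain, midbrain and eye genes, *En2*, was at 0.152 and 1.97 FPKM. Interneuron genes were mainly under 1 FPKM in both libraries (23 of 29), and 4 of the 6 included were higher (median 1.79), 1 of them among the 3 on in wild-type cells, with *Tlx3* at 0.183 and 3.67 FPKM, *Pou4f1* at 1.99 and 8.26 FPKM and *En1* at 0.139 and 1.56 FPKM.

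**Figure D3:**
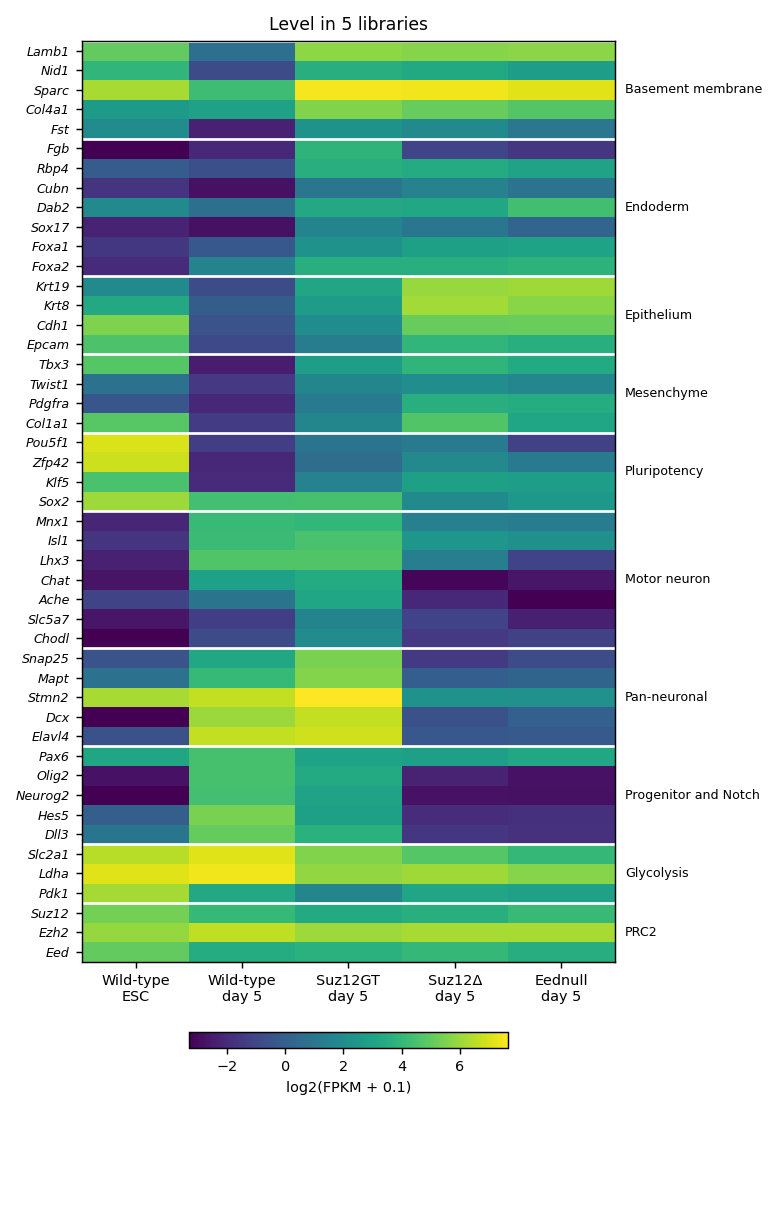
Levels of 47 genes in 5 libraries as log2(FPKM + 0.1), yellow high and dark violet low, in the groups named at the right, drawn from the lists with values known. *Lamb1*, *Rbp4* and *Krt8* are low in wild-type day 5 cells alone among the day 5 libraries, and *Snap25*, *Mnx1* and *Elavl4* are high in wild-type and *Suz12GT* day 5 cells alone among them.

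*Hox* genes, which set position along the body axis, kept their overall pattern. Of 39 genes 22 were included, with 5 higher, 2 lower and a median of 0.06. *Hoxc6* (chromosome 15, 102828688 to 102842312) measured 0.872 FPKM in wild-type and 12 FPKM in *Suz12GT* cells, *Hoxb9* at 3.32 and 21.7 FPKM, *Hoxa7* at 1.75 and 8.44 FPKM and *Hoxd1*, at the other end, at 0.464 and 2.07 FPKM. *Hoxa9* and *Hoxb13* were listed at 0 in wild-type cells and at 2.14 and 2.59 FPKM in *Suz12GT* cells. The fifth higher gene, *Hoxd8*, was at 0.817 and 1.91 FPKM. The lower ones were *Hoxd3* at 75.3 and 35.5 FPKM and *Hoxc5* at 15.9 and 6.97 FPKM. Neighbouring *Hox* genes share transcripts in this table, and the locus field of *Hoxa7* covers 10 genes, so the split of reads among them is uncertain. Retinoic acid genes were higher for 6 of 20 members and lower for none (median 0.30). The enzymes *Aldh1a2*, which makes retinoic acid, and *Dhrs3*, which turns retinal back to retinol, were at 0.935 and 13.1 FPKM in wild-type cells and 8.29 and 57.4 FPKM in *Suz12GT* cells, and the target genes *Stra8* and *Stra6* were at 2.17 and 8.62 FPKM in wild-type and 18.9 and 29.1 FPKM in *Suz12GT* cells.

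**Figure D4:**
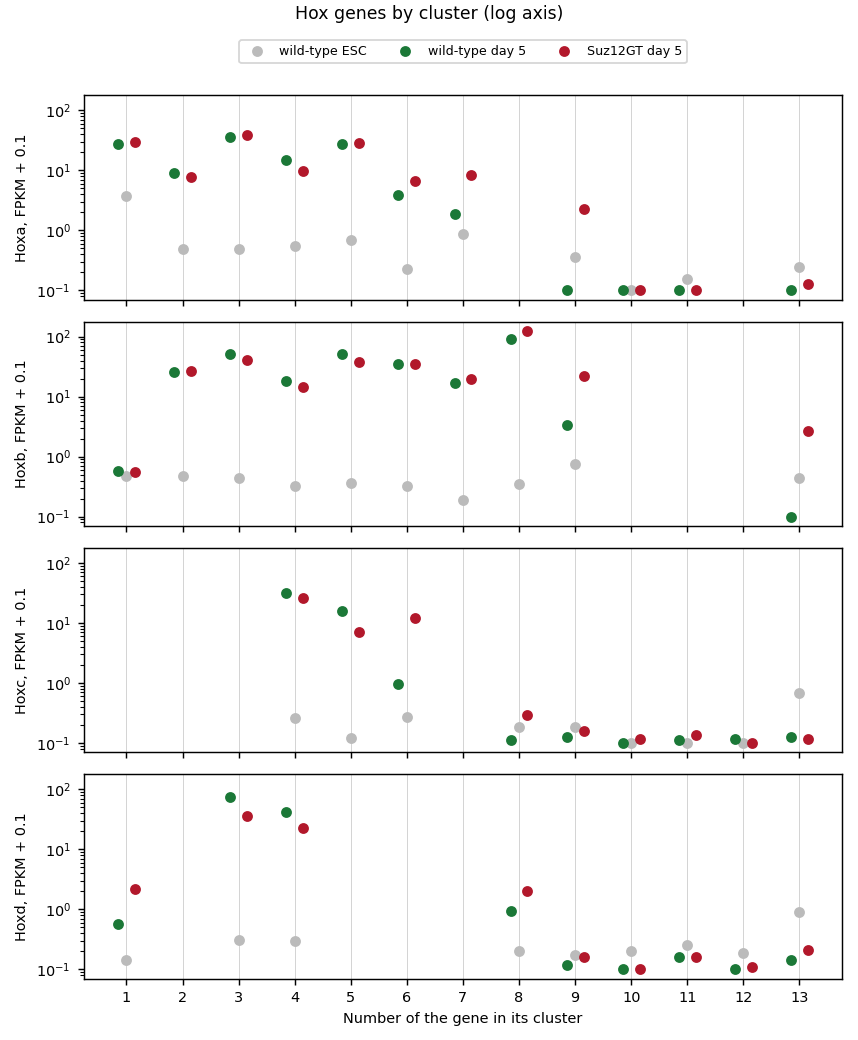
Levels of 39 *Hox* genes (FPKM + 0.1, log axis) by cluster (panels) and gene number in the cluster (x axis) in wild-type ESCs, wild-type day 5 and *Suz12GT* day 5 cells, 1 point per library. Wild-type and *Suz12GT* points lie close together up to number 8 in the *Hoxb* cluster and part at *Hoxb9*, *Hoxc6* and *Hoxa7*.

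Genes of parietal endoderm and basement membrane were higher as a group. Of 17 parietal endoderm and basement membrane genes 11 were higher, 4 of them gained, and none was lower, with a median of 2.63. Among the 13 on in wild-type cells 7 were higher (median 1.21). *Lamb1* (chromosome 12, 31950099 to 32014509), the laminin beta chain, stood at 32.2 FPKM in E14 ESCs and, at day 5, at 1.52 FPKM in the wild type and 55.4 FPKM in *Suz12GT*, close to the 50.5 and 54.1 FPKM of *Suz12Δ* and *Eednull* cells. *Nid1*, which links laminin to collagen, was at 0.486 and 11.7 FPKM in wild-type and *Suz12GT* cells. The activin antagonist *Fst* was at 0.0993 and 4.79 FPKM, and *Pdgfra*, a receptor of primitive endoderm and mesenchyme, at 0.135 and 2.23 FPKM. *Sparc* and the collagen genes *Col4a1* and *Col4a2*, named after their values were seen, were at 18.8, 7.67 and 5.67 FPKM in wild-type cells and 181, 48.1 and 42.3 FPKM in *Suz12GT* cells. *Srgn* was listed at 0 in wild-type cells and at 37.3 FPKM in *Suz12GT* cells, above the 2.55 and 5.33 FPKM of the null lines.

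Of 9 genes for proteins that visceral endoderm secretes or takes up, 8 were higher, 5 of them gained, with a median of 1.76, and the count was 4 with 1 FPKM added. The 5 gained genes were included only through their level in *Suz12GT* cells, another 15 of the 27 listed genes were under 1 FPKM in both libraries, and of the 4 on in wild-type cells 3 were higher. *Fgb* (chromosome 3, 82846169 to 82853725), the fibrinogen beta chain, was at 0.144 FPKM in wild-type and 14.1 FPKM in *Suz12GT* cells, and at 0.395 and 0.230 FPKM in *Suz12Δ* and *Eednull* cells. *Rbp4*, the retinol carrier, was at 0.538 and 12 FPKM in wild-type and *Suz12GT* cells, and the uptake genes *Cubn* and *Dab2* were at 0.0411 and 1.59 FPKM in wild-type and 1.86 and 9.74 FPKM in *Suz12GT* cells. Defining visceral endoderm genes were low all the same, with *Afp* listed at 0 and at 0.155 FPKM and *Ttr* at 0.0348 and 0.356 FPKM. Among 8 endoderm transcription factors 4 were higher and none lower (median 1.12), with 1 of the 5 on in wild-type cells higher. The 3 others that were higher were included only through their level in *Suz12GT* cells, and 12 of the 21 listed factors were under 1 FPKM in both libraries. *Sox17* measured 0.0389 FPKM in wild-type, 3.03 FPKM in *Suz12GT*, 1.89 FPKM in *Suz12Δ* and 1.09 FPKM in *Eednull* cells, *Foxa1* at 0.711 and 4.92 FPKM and *Gata6* at 0.653 and 2.18 FPKM in wild-type and *Suz12GT* cells. *Gata4* was listed at 0 in wild-type cells and at 11.6 FPKM in *Suz12GT* cells.

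The windows around the starts of *Plagl1*, *Lamb1* and *Fgb*, 3 of the 12 genes with the largest differences in the higher direction, are shown because these genes shared a low wild-type level and differ in the content of their promoters. PRC2 is known to bind stretches rich in the dinucleotide CG, which is written in capitals. Each window runs from 250 bases before to 50 bases after the start given by RefSeq on GRCm38.p6, at chr10:13090582-13090881 on the plus strand, chr12:31265043-31265342 on the plus strand and chr3:83049814-83050113 on the minus strand.
Plagl1: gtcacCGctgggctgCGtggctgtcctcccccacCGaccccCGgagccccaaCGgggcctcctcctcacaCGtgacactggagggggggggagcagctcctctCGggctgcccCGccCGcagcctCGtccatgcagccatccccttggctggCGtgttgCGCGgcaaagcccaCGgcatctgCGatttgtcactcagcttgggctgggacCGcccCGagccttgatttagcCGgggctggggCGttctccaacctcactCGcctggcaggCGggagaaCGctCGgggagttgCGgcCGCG
Lamb1: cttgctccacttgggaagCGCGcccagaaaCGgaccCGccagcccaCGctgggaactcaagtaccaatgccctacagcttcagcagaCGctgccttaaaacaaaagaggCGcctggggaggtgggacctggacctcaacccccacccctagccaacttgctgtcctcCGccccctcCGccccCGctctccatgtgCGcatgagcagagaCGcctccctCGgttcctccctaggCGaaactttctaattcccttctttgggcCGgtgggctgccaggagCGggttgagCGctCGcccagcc
Fgb: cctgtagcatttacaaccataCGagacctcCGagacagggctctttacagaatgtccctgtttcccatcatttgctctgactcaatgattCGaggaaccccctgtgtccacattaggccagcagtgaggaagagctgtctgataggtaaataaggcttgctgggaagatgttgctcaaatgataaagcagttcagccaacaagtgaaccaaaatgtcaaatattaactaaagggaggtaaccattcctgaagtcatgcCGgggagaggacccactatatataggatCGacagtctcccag
CG occurred 26 times in the first, 18 times in the second and 5 times in the third, which is 0.696, 0.615 and 0.311 of the number that the content of C and G would give. The median over 27025 promoters of the same length was 7, and 36.5% had a ratio of 0.6 or more. These promoters were all those in RefSeq, 1 per gene, and not only those of the genes compared. Only 69.4% of the genes compared had a window in the RefSeq table, too few for a count over gained and kept genes.

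The median level of epithelial genes in *Suz12GT* cells, 7.04 FPKM, lay between wild-type and null cells. Of 18 adhesion and keratin genes 14 were higher, 9 of them gained, and none was lower (median 2.23), and of the 9 on in wild-type cells 5 were higher. *Krt8* measured 0.845 FPKM in wild-type, 6.42 FPKM in *Suz12GT*, 71.5 FPKM in *Suz12Δ* and 53.1 FPKM in *Eednull* cells. *Krt19* was at 0.490 and 8.67 FPKM in wild-type and *Suz12GT* cells and at 61.9 and 68.9 FPKM in the null lines. The tight junction gene *Cldn7* was at 0.311 and 2.29 FPKM and the keratin gene *Krt7* at 0.181 and 1.57 FPKM, and *Cdh1*, E-cadherin, named after its values were seen, at 0.608 and 3.96 FPKM. Of 6 trophoblast genes 2 were higher, *Krt7* and *Esx1* (0.10 and 1.99 FPKM), with a median of 0.71, and none of the 4 on in wild-type cells was higher.

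Primitive streak and mesoderm genes were nearly all low in wild-type cells. Of 31 listed genes 22 were under 1 FPKM in both libraries, 8 were gained and 1 was on in wild-type cells and within 2-fold. The 8 were included only through their level in *Suz12GT* cells, and 80.2% of all such genes were past 2-fold, so their count and the median of 3.0 over the 9 included genes say little about the list. *Tbx3*, a factor also used in ESCs, stood at 27.0 FPKM in E14 ESCs and, at day 5, at 0.0815 FPKM in wild-type and 7.13 FPKM in *Suz12GT* cells. *Twist1*, a mesenchymal factor, was at 0.253 and 3.18 FPKM and the cardiac factor *Hand2* at 0.151 and 1.97 FPKM, whereas the streak gene *T* was at 0.104 and 0.0153 FPKM and was not included. Heart and muscle genes were higher for 2 of 10, *Nkx2-5* (0.0177 and 1.19 FPKM) and *Myl9* (2.95 and 7.45 FPKM), with a median of 0.61. Neural crest and placode genes were higher for 6 of 10 (median 1.42), 3 of them among the 6 on in wild-type cells, with *Phox2a* at 1.58 and 7.69 FPKM and *Tcfap2a* at 0.0507 and 1.23 FPKM. *Sox10*, which defines migrating crest, was under 0.1 FPKM in both.

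Fibroblast and mesenchyme genes were higher for 14 of 19, 10 of them gained, and lower for none (median 1.67), and for 9 of 19 with 1 FPKM added. Among the 8 on in wild-type cells 4 were higher. *Col1a1* stood at 27.9 FPKM in E14 ESCs and, at day 5, at 0.290 FPKM in the wild type and 3.21 FPKM in *Suz12GT*, *Dcn* at 0.0899 and 2.76 FPKM and *Ctgf* at 2.34 and 15.3 FPKM at day 5. Summed over the 26 listed genes the level was 41.4 FPKM in wild-type and 97.6 FPKM in *Suz12GT* cells, against 481 FPKM in E14 ESCs, 369 FPKM in *Suz12Δ* and 242 FPKM in *Eednull* cells. Of the 26, 2 were listed at 0 in wild-type cells and none in *Suz12GT* cells. ESCs had been kept on fibroblast feeders, and the part of feeder RNA in the gained collagen and basement membrane genes was not tested. Of 6 blood and endothelium genes 4 were higher, all of them gained, and the 2 on in wild-type cells were lower. *Runx1*, a factor of blood and of some neurons, was at 0.199 and 7.05 FPKM, *Flt1* at 0.0131 and 1.31 FPKM and *Cdh5* at 0.0317 and 1.18 FPKM, while the embryonic globin genes *Hbb-y* and *Hba-x* were at 2.19 and 2.21 FPKM in wild-type and 0.275 and 0.455 FPKM in *Suz12GT* cells.

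Pluripotency genes were far below ESC levels in both day 5 libraries. Of 15 included genes 10 were higher and 1 was lower, *Nr0b1*, with a median of 2.32. The 9 under 1 FPKM in wild-type cells were included only through their level in *Suz12GT* cells and were the 9 gained, and of the 6 on in wild-type cells 1 was higher and 1 lower (median 0.01). *Pou5f1*, the core pluripotency factor, stood at 130 FPKM in E14 ESCs and, at day 5, at 0.302 FPKM in the wild type and 1.80 FPKM in *Suz12GT*. *Klf5* was at 23.0, 0.154 and 2.81 FPKM in the same order, *Dppa5a* at 407, 0.447 and 3.76 FPKM, and *Spp1* at 233, 2.15 and 25.1 FPKM. Over all 32 listed genes the sum was 63.9 FPKM in wild-type and 110 FPKM in *Suz12GT* cells, against 2575 FPKM in E14 ESCs. In the day 5 sums *Spp1*, the 1 higher gene among those on in wild-type cells, made up 2.15 and 25.1 FPKM. Undifferentiated cells left in the culture and low expression in differentiated cells cannot be told apart. Germline genes were higher for 7 of 11 and lower for none (median 1.35), 2 of them among the 6 on in wild-type cells. *Zfp42*, which is also on the pluripotency list, was at 0.143 and 1.42 FPKM. *Tex19.1* was at 0.529 and 2.59 FPKM and the X-linked homeobox gene *Rhox9* at 0.113 and 1.95 FPKM. In E14 ESCs *Zfp42*, *Tex19.1* and *Rhox9* were at 113, 34.0 and 1.33 FPKM.

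FGF pathway genes were higher for 11 of 17, 6 of them gained, and lower for none (median 1.36), or for 6 of 17 with 1 FPKM added. Among the 11 on in wild-type cells 5 were higher (median 0.41). The targets *Etv4*, *Etv5*, *Spry1* and *Spry4* were at 0.340, 0.714, 0.641 and 0.151 FPKM in wild-type cells and at 4.15, 2.91, 3.96 and 1.12 FPKM in *Suz12GT* cells. BMP and TGF-beta genes were higher for 8 of 18 and lower for none (median 0.95), 3 of them among the 12 on in wild-type cells, with *Bmp7* at 3.79 and 17.9 FPKM and *Tgfb2* at 0.646 and 3.04 FPKM. *Bmp4* (0.140 and 0.230 FPKM), *Bmp2* (0.0447 and 0.974 FPKM) and *Gata3* (0.118 and 0.772 FPKM) were under 1 FPKM in both and not included. Wnt genes were higher for 3 of 12 (*Wnt4*, *Wnt7b* and *Dkk3*) and lower for none, with a median of -0.03. Of 21 PRC2 target genes that the study names, 11 were included, with *Sox17*, *En1* and *Gata6* higher, *Pax6* and *Olig2* lower and a median of 0.33. The study chose those genes on these samples, so they are no independent evidence of a direction.

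**Figure D5:**
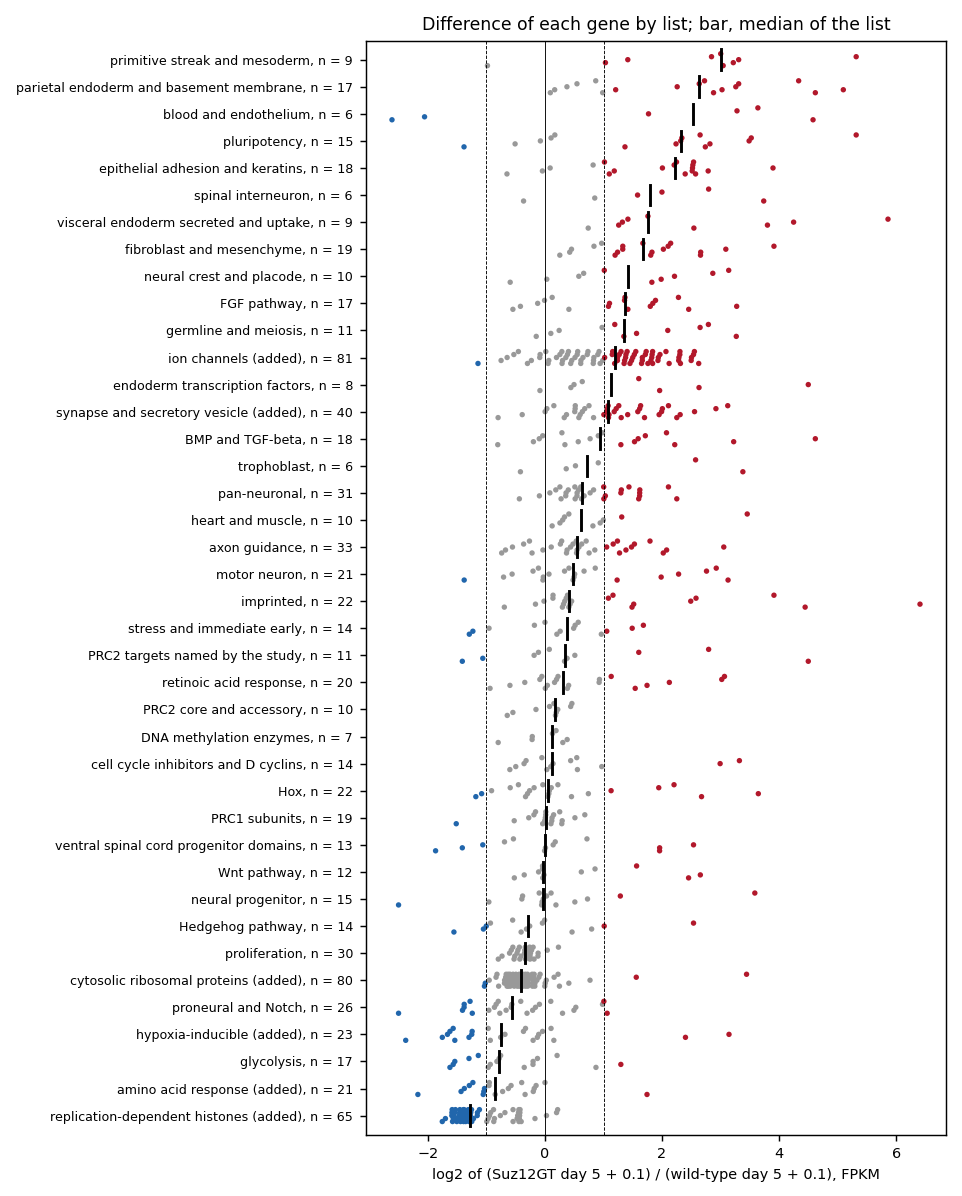
Log2 difference of each included gene (points; red, 2-fold or more higher; blue, 2-fold or more lower; grey, within 2-fold) for the lists with at least 5 included genes, ordered by median (black bar); dashed lines, 2-fold; lists marked (added) were drawn up after values were seen. Mesoderm (median 3.0, with 8 of 9 genes included through *Suz12GT* cells alone) and basement membrane (2.63) stand at the top and replication-dependent histones (-1.27) at the bottom.

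The largest single difference among genes at 5 FPKM or more was that of *Plagl1* (chromosome 10, 12810497 to 12851500), an imprinted zinc finger gene. It was at 0.918 FPKM in E14 ESCs, 0.468 FPKM in wild-type day 5, 48.0 FPKM in *Suz12GT*, 66.7 FPKM in *Suz12Δ* and 101 FPKM in *Eednull* cells, a log2 difference of 6.4 between *Suz12GT* and wild type. Imprinted genes as a list were higher for 9 of 22 and lower for none (median 0.42). *Nnat* was at 9.69 and 213 FPKM, *Igf2*, a growth factor, at 7.11 and 43.0 FPKM, and *Dcn* has been given above. *Nnat* lies within another gene, and whether counting used strand is not given in the sources used here. *Cdkn2a* (chromosome 4, 88920377 to 88940557), the INK4A and ARF locus and a textbook Polycomb target, measured 3.11 FPKM in wild-type, 32.0 FPKM in *Suz12GT*, 60.9 FPKM in *Suz12Δ* and 66.6 FPKM in *Eednull* cells, and its neighbour *Cdkn2b* at 0.208 and 2.35 FPKM in wild-type and *Suz12GT* cells. These were the 2 called among 14 cell cycle inhibitor and D cyclin genes (median 0.12).

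The 12 largest differences in the higher direction among genes at 5 FPKM or more also held *Pga5* (0.0285 and 9.61 FPKM), which encodes a gastric protease precursor, *Clu*, clusterin (0.829 and 51.5 FPKM), the water channel gene *Aqp8* (0.0651 and 7.88 FPKM), *Tex13* (0.0660 and 5.65 FPKM), *Hs3st1* (0.185 and 7.65 FPKM), *Ctsh* (0.152 and 6.55 FPKM) and *Enpp2* (0.480 and 14.8 FPKM). *Clu* reached 245 and 112 FPKM in *Suz12Δ* and *Eednull* cells, whereas *Pga5* stayed at 0.415 and 1.47 FPKM and *Aqp8* at 0.648 and 0.535 FPKM there. *Hprt*, a purine salvage enzyme gene named after its values were seen, was at 0.652 FPKM in wild-type and 16.5 FPKM in *Suz12GT* day 5 cells. It was at 2.08 FPKM in E14 ESCs and between 20.7 and 53.3 FPKM in the other 5 libraries. Both E14 libraries were thus the low ones, while CJ7 ESCs, also wild type, were at 53.3 FPKM. The reason for the low E14 values was not tested. Y-linked genes were on in both libraries, *Eif2s3y* at 28.4 and 27.1 FPKM.

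The gained genes were also looked at in the other libraries. Of the 738, 530 (71.8%) were at 1 FPKM or more in *Suz12Δ* and 503 (68.2%) in *Eednull* day 5 cells, and 346 (46.9%) were at 1 FPKM or more in E14 ESCs. Over all 920 genes under 1 FPKM in wild-type day 5 cells these shares were nearly the same, 70.9%, 67.1% and 47.6%, so they are not particular to the gained genes. Over all 12355 genes they were 94.0%, 93.5% and 88.2%. The median level of the gained genes was 0.843 FPKM in E14 ESCs, 0.433 FPKM in wild-type day 5, 1.89 FPKM in *Suz12GT*, 2.59 FPKM in *Suz12Δ* and 2.01 FPKM in *Eednull* cells. Genes on in E14 ESCs and both nulls numbered 299 and included *Clu*, *Tbx3*, *Nid1*, *Krt8* and *Fst*. Another 179 were on in both nulls and under 1 FPKM in E14 ESCs, among them *Plagl1*, *Hoxc6*, *Rbp4*, *Aldh1a2*, *Foxa1* and *Sox17*.

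A different set was made up of 165 of the 738 gained genes. They were at 1 FPKM or more in *Suz12GT* day 5 cells and under 1 FPKM in wild-type day 5, *Suz12Δ* day 5, *Eednull* day 5 and E14 ESC libraries. The set held 20 of the 26 gained ion channel genes and 8 of the 9 gained synapse and vesicle genes, both lists drawn up after values were seen. Among these were *Cacna1e* (3.70 FPKM in *Suz12GT*), *Gria4* (3.08 FPKM) and *Pcsk1* (3.64 FPKM). *Slc5a7*, *Chodl* and *Tlx3* were in the set too. None of the gained epithelial, mesodermal, fibroblast or basement membrane genes was in it. *Fgb* (14.1 FPKM) was its highest member and *Aqp8* another, so it was not neuronal throughout.

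Several lists held more lower than higher genes. Of 17 glycolysis genes 5 were lower and 1 was higher, with a median of -0.78. *Slc2a1* (chromosome 4, 118781316 to 118809935), the glucose transporter GLUT1, was at 90.4 FPKM in E14 ESCs, 142 FPKM in wild-type day 5, 47.8 FPKM in *Suz12GT*, 27.6 FPKM in *Suz12Δ* and 15.8 FPKM in *Eednull* cells. *Ldha*, lactate dehydrogenase, was at 173 and 59.3 FPKM in wild-type and *Suz12GT* cells, *Pfkl* at 39.9 and 16.2 FPKM and *Pdk1*, which limits entry of pyruvate into mitochondria, at 9.96 and 3.16 FPKM. The higher gene was the isoform *Pfkp*, at 11.1 and 27.4 FPKM. The lactate exporter *Slc16a3* (33.2 and 6.29 FPKM) and *Aldoc* (8.84 and 2.55 FPKM) were among the 12 largest differences in the lower direction. A list of 23 hypoxia-inducible genes that was drawn up after the values were seen and overlaps with glycolysis had 9 lower and 2 higher (median -0.76), the latter *Ndrg1* at 0.494 and 5.15 FPKM and *P4ha2* at 3.63 and 19.6 FPKM.

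Some amino acid synthesis and transport genes were lower in the same library. *Asns*, asparagine synthetase, was at 104 FPKM in wild-type and 44.0 FPKM in *Suz12GT* cells, the arginine transporter gene *Slc7a3* at 9.97 and 2.13 FPKM, and *Chac1*, a glutathione-degrading enzyme induced by amino acid shortage, at 7.36 and 2.94 FPKM. Of 21 genes on an amino acid response list, again drawn up after the values were seen, 8 were lower and 1, *Nupr1*, was higher (median -0.85). In the list of 14 stress and immediate early genes *Asns* and *Chac1* were the 2 lower ones, and *Egr1*, *Junb* and *Jun* were higher, at 0.734, 0.372 and 9.31 FPKM in wild-type and 2.24, 1.41 and 19.4 FPKM in *Suz12GT* cells (median 0.37). None of these 3 was past 2-fold with 1 FPKM added.

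None of 30 proliferation genes was called, with a median of -0.34 and with *Pcna* at 158 and 95.2 FPKM and *Mcm7* at 117 and 79.6 FPKM. Genes for replication-dependent histones, listed after the values were seen, were lower for 40 of 65 and higher for none, with a median of -1.27, *Hist1h2bb* at 7.86 and 2.35 FPKM among them. Without them 115 genes were lower in place of 155. Their transcripts mostly lack poly(A) tails and the genes are near copies of each other, so the split of reads among them is uncertain. Cytosolic ribosomal protein genes had a median of -0.41 over 80 members, 2 of them called in each direction. Near copies of other genes also stood among the 12 largest differences in the lower direction, namely *Gm5481*, *Gm6404* and *Gm5506*, and their values are uncertain for the same reason. The remaining genes there were *Moxd1* (18.1 and 3.38 FPKM), *Frem2* (6.55 and 1.91 FPKM), *Pipox* (6.10 and 1.83 FPKM) and *Nr2f6* (78.3 and 24.6 FPKM). Lost genes were all low, with none of the 38 above 5 FPKM in wild-type cells.

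Differences followed the level and length of genes. Over genes with a mean of 1 to 2 FPKM the median log2 difference was 0.69 and 36.6% were higher, over those at 10 to 30 FPKM it was 0.07 and 3.14% were higher, and over those above 100 FPKM it was -0.18 and 1.3% were higher. Among the 3089 genes with the longest spans, 57.2 kb or more, 18.6% were higher, against 10.3% of the 3089 with the shortest. The part of level and span in the differences of the lists was not tested. By chromosome the median ran from 0.07 on chromosome 13, which carries the largest histone cluster, to 0.22 on chromosome 6. Protein-coding genes at 1 FPKM or more numbered 11454 in wild-type and 12327 in *Suz12GT* cells, and the 10 highest entries of the table took 13.8% and 9.19% of all FPKM. The number of reads in either library is unknown.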

How the data were processed

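RNA of mouse cells was sequenced in 8 libraries, and the comparison used 1 library of *Suz12GT* day 5 cells and 1 of wild-type E14 day 5 cells. The authors aligned reads with TopHat 1.3.2 and Bowtie 0.12.7 to NCBI build 37 and deposited FPKM values per gene from Cufflinks 1.2.1 and Cuffdiff, corrected for bias and for reads that map to several places. The deposited files used here hold no read counts, so depth is unknown and no interval or count test was made. Gene types came from GENCODE vM1, matched by identifier for 36104 of 36808 genes.

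Genes were compared as the log2 ratio of FPKM + 0.1 and called at 2-fold. With 1 library per group there was no test. Counts are given for 36 gene lists with 803 genes and for 6 lists added after values were seen. All members and lists were chosen with earlier results of these data known. Genes named were the 12 largest differences in each direction among genes at 5 FPKM or more, up to 4 past 2-fold in each direction per list (or the 2 with the highest mean level where none passed), the PRC2 core and the genes the study names for this comparison. Other genes, including those from the added lists and from the sets of gained genes, those listed at 0 and those just inside or outside the inclusion rule, were named after their values were seen. Alternatives were no pseudocount or 1 FPKM, a minimum of 0.1 or 5 FPKM, zeros kept, 2 scalings, all gene types, genes alone at their locus, no histones and 4-fold. Some genes that the naming rule picks are not reported here. The steps were tested on simulated data. Python 3.11.15, NumPy 2.4.6, pandas 2.3.3 and Matplotlib 3.10.9 were used.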

Additional observations from a re-analysis of the deposited data

Results flagged for a closer look

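Genes listed at 0 in wild-type day 5 cells fell outside the comparison, and 6 of those at 10 FPKM or more in *Suz12GT* day 5 cells are given here. *Gpc3*, a proteoglycan gene, was at 74.0 FPKM, *Srgn* at 37.3 FPKM and *Irx2*, a homeobox gene, at 20.1 FPKM. *Sft2d1* was at 17.6 FPKM, *Stim2* at 13.6 FPKM and the endoderm and heart factor *Gata4* at 11.6 FPKM. A value of exactly 0 can be a failed estimate in these files, since 13 genes that share the locus of *Skp1a*, a gene at 180 FPKM in wild-type cells, were all listed at 0 in *Suz12GT* cells. No fold is given for any of them.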

How the results depend on the processing

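The main counts were 1448 genes higher, 155 lower, 738 gained and 38 lost. With 1 FPKM added they were 849, 101, 365 and 7. With a minimum of 5 FPKM, which left 9341 genes, they were 574 (6.14%), 94, 44 and 0, and with a minimum of 0.1 FPKM 2250 genes were higher. Over all gene types 314 were lower and 99 lost. The 7393 genes alone at their locus gave 887 higher, 476 gained and 23 lost, and the share higher, 12%, was close to the 11.7% over all genes. At 4-fold 475 were higher, 11 lower and 366 gained. The last 2 settings were chosen after seeing the data. No direction reversed. Scaling to the same 75th percentile gave 1311 higher and 183 lower, and centring on genes on in both gave 1271 and 188. The overall excess of higher genes was thus present under both. Counts for the gene lists depended on the settings too. With a minimum of 5 FPKM 28 list counts moved and 56 stayed the same. With a minimum of 0.1 FPKM 19 moved and 65 stayed. With 1 FPKM added 11 moved and 73 stayed, and under each scaling 5 moved and 79 stayed. No paired analysis was possible because each group held 1 library and no replicate numbers, and no library could be left out. Depth in reads is unknown, so low values carry an error that these data cannot give.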

Other observations

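The long non-coding RNAs of the imprinted *Dlk1* region on chromosome 12 were low in *Suz12GT* day 5 cells. *Meg3* was at 125 FPKM in wild-type and 0.890 FPKM in *Suz12GT* cells, *Rian* at 82.6 and 1.12 FPKM and *Mirg* at 10.6 and 0.591 FPKM. In the other 6 libraries they ranged from 33.5 to 269 FPKM, from 15.5 to 122 FPKM and from 2.15 to 12 FPKM. The protein-coding neighbour *Dlk1* was at 41.1 and 51.9 FPKM. *H19*, the imprinted non-coding RNA beside *Igf2*, was at 1.92 FPKM in wild-type and 16.3 FPKM in *Suz12GT* cells. These genes were outside the comparison of protein-coding genes and were looked at after its values were known.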
